A study of Mus musculus with 2 samples.

Results

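Microvillus structural genes were examined in mouse intestinal organoids (mIOs) as a set of 10 genes chosen by name: Vil1, Espn, Eps8, Ezr, Myo1a, Myo7b, Ush1c, Cdhr2, Cdhr5 and Pls1. Each was present among the 19294 genes of the count table, and each passed the minimum of 10 counts in a library, as did 17235 genes in all. The mIOs were epithelial cultures grown from jejunal crypts of Lgr5-EGFP-IRES-creERT2 mice in medium with EGF, Noggin and R-spondin. In this strain EGFP and a tamoxifen-inducible Cre are expressed from the Lgr5 locus, and both groups carry the allele. The control group was 1 culture and the DSS group was 1 culture given dextran sulfate sodium, a compound used to model colitis, and both were labelled day 4. With single cultures, a difference between treatments and one between cultures cannot be told apart. The DSS concentration used for sequencing and the age of the mice are not given in the sources used here. The comparison addresses how expression of the genes that build the brush border differed between the DSS culture and the control culture.

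Microvilli are finger-like projections of the apical membrane, each held up by a bundle of parallel actin filaments, and on enterocytes they are packed into a brush border that carries the digestive enzymes and transporters. Villin, espin and plastin-1 cross-link the filaments, Eps8 sits at the growing tip, ezrin and myosin-1a tie the bundle to the membrane, and protocadherins at the tips link neighbouring microvilli into regular arrays. These genes are switched up as cells leave the crypt and mature along the villus.

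Depth was 65493032 counts in the control and 59746968 counts with DSS, and the median log2 ratio over all genes tested was -0.06. Scaling by total counts alone, without TMM factors, lowered each log2 ratio by 0.26, to a median of -0.31 over all genes. The organoids were labelled as intestinal stem cells, but both libraries also held transcripts of mature cells. All 9 enterocyte markers were at a log2 ratio of 1 or more, with a summed level of 2747 CPM (TMM-scaled counts per 1000000 counts) in the control, compared with 23786 CPM after DSS. The 7 goblet cell markers summed to 756 and 11378 CPM and the 7 enteroendocrine markers to 823 and 4254 CPM, and all of them were at 1 or more. Of 7 Paneth cell markers 6 were at -1 or less, as were all 6 stem cell markers and 6 of 7 markers of cycling cells. In control and DSS, the summed levels were 1079 and 334 CPM for Paneth cells, 924 and 150 CPM for stem cells and 1278 and 233 CPM for cycling cells. Of 10 tuft cell markers, 8 were listed, with 10.3 and 5.80 CPM in all. Of 8 mesenchymal markers 3 were listed and summed to 0.503 and 0.933 CPM. Of 8 immune markers 3 were listed and summed to 14 and 24.2 CPM, and Ptprc, the pan-leukocyte marker, was not listed. The marker levels shifted in both directions, and their part in the ratios given below was not tested. In bulk RNA, more cells of a type and more RNA per cell cannot be told apart.

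Transcripts of the microvillus genes were more abundant in the DSS library. Of the 10 genes, 7 had a log2 ratio (DSS over control) of at least 1 and 0 had one of -1 or lower, against 19.3% and 20.2% of all genes tested. Each member had 1000 or more counts in a library, as did 8960 genes in all, of which 12.8% reached 1 and 17.7% reached -1. At the wider lines of 2 and -2 there were 3 members above (Myo1a, Cdhr5 and Cdhr2) and 0 below, against 7.87% and 6.54% of all genes tested and 4.23% and 5.38% of those with 1000 or more counts. Cdhr2, with an interval of 1.98 to 2.02, lay on the line. With total counts Cdhr2 was at 1.75 and Cdhr5 at 1.91, so that of the 3 only Myo1a, at 2.91, stayed past 2. The median log2 ratio of the members was 1.32, and their range was from 0.07 for Myo7b to 3.17 for Myo1a. Together they took 165207 counts, or 0.252% of the control library (exact 95% interval 0.251% to 0.253%), and 344328 counts, or 0.576% of the DSS library (0.574% to 0.578%). The log2 ratio of their summed scaled counts was 1.45 (1.44 to 1.46), and 1.30 without Myo1a. Under total-count scaling 6 members reached 1, since Vil1 then lay at 0.997, and the median was 1.06. Of all genes past 1 or -1, 37.1% were on the higher side under total-count scaling and 48.9% with TMM factors. No difference had a replicate check, and the intervals cover counting error only.

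**Figure D1:**
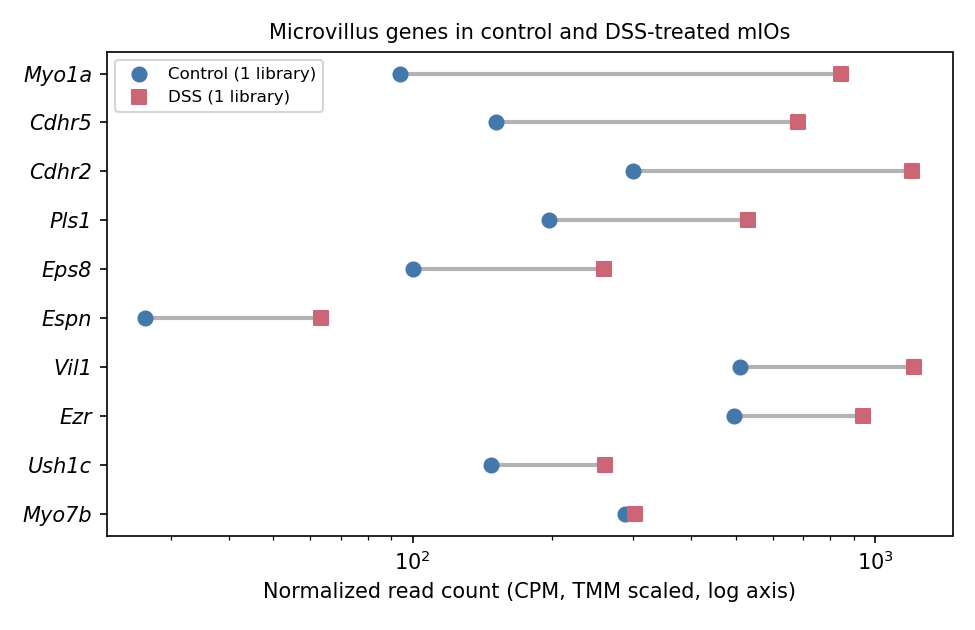
Normalized read counts of the 10 microvillus genes in the control library (circles) and the DSS library (squares), 1 library each, on a log axis in CPM, ordered by the ratio. The line for Myo1a runs from 94.1 to 845 CPM and that for Myo7b from 288 to 302 CPM.

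**Figure D2:**
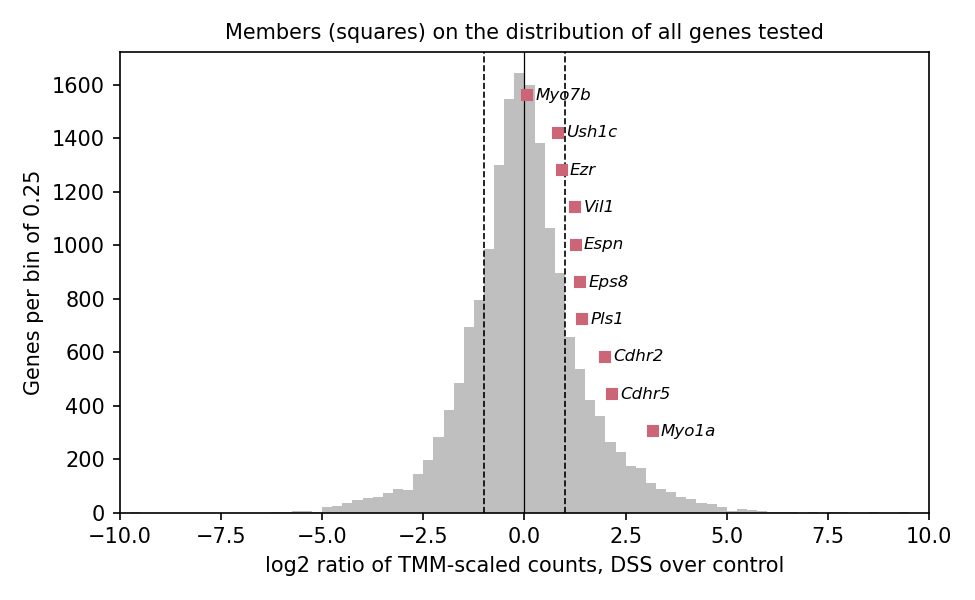
Number of genes in each bin of 0.25 of the log2 ratio (DSS over control) for 17235 genes, with the microvillus genes as squares whose height carries no value. The dashed lines mark 1 and -1, and Myo7b, Ush1c and Ezr lie to the left of the line at 1.

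Transcripts of the bundle proteins had log2 ratios from 1.25 for Vil1 to 1.43 for Pls1. Vil1, which encodes villin, an actin bundler that severs filaments when calcium is high, had 36438 counts in the control and 66364 counts in the DSS library. This was 509 and 1214 CPM, a log2 ratio of 1.25 (interval 1.24 to 1.27), or 2.38-fold. Villin transcripts were also the most abundant of the set per kilobase of transcript in both libraries, at 163 and 389 CPM per kb. Espn, which encodes the tight bundler espin, was at 26.4 and 63.5 CPM (1891 and 3470 counts), with a log2 ratio of 1.26 (1.18 to 1.35). It was the least abundant member in either library, at 5.72 and 13.7 CPM per kb. Pls1, for plastin-1 (fimbrin), which sets the spacing of the filaments, was at 197 and 531 CPM (14112 and 29031 counts), a log2 ratio of 1.43 (1.4 to 1.46). Eps8, a capping and bundling protein of the microvillus tip, was at 100 and 259 CPM (7164 and 14155 counts), a log2 ratio of 1.37 (1.33 to 1.41). The ratios of Espn and Vil1 differed by 0.01, with an interval from -0.07 to 0.09 that held 0. In the order of all 10 ratios, this was the only one of 9 neighbouring pairs whose interval held 0.

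The relatives of these bundlers lay on both sides of 0. Scin, for the calcium-dependent severing protein scinderin, a member of the gelsolin and villin family, went from 9.05 CPM (648 counts) to 240 CPM (13099 counts). Its log2 ratio of 4.73 (4.61 to 4.84) was 3.47 above that of Vil1. Gsn (gelsolin) was at 49.3 and 220 CPM, a log2 ratio of 2.16 (2.11 to 2.21). Vill, for villin-like, was at 8.09 and 3.48 CPM, a log2 ratio of -1.22 (-1.46 to -0.98), and Avil (advillin), also a tuft cell marker, was at 1.96 and 1.85 CPM, with an interval from -0.47 to 0.30. Among the plastins, Lcp1 (plastin-2, the leukocyte form) was at 92.8 and 16.4 CPM, a log2 ratio of -2.50 (-2.60 to -2.40). Pls3 (plastin-3) was at 7.99 and 5.19 CPM, a log2 ratio of -0.62. The ratio of Pls1 was 3.93 above that of Lcp1 (3.82 to 4.03). Per kilobase of transcript, Pls1 was at 53.2 and 143 CPM and Lcp1 at 24.2 and 4.28 CPM. Of the 10 tested genes in the list of bundlers and the villin family, 5 were at 1 or more, 3 of them members, and 3 were at -1 or less. The shares over all genes tested were 19.3% and 20.2%.

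Eps8 was not the most abundant gene of its own family. Eps8l3 was at 266 and 717 CPM, a log2 ratio of 1.43 (1.4 to 1.45), and Eps8l2 at 202 and 445 CPM, a log2 ratio of 1.14 (1.11 to 1.17). Per kilobase of transcript, Eps8l3 was at 117 and 316 CPM, compared with 21.9 and 56.7 CPM for Eps8. Eps8l1 was at 8.73 and 12.2 CPM. Cobl, for the actin nucleator cordon-bleu, was at 85.7 and 328 CPM, a log2 ratio of 1.94 (1.90 to 1.98). Of 12 genes in the list of tip and capping proteins, Eps8, Eps8l2, Eps8l3 and Cobl were at 1 or more, 0 were at -1 or less, and the median was 0.41. Under total-count scaling these values were 3 genes, 1 gene and 0.158. The barbed-end capping subunit Capzb was at 198 and 252 CPM, a log2 ratio of 0.34.

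The intermicrovillar adhesion complex, which holds microvilli side by side, had ratios from 0.07 to 2.17 over its 6 genes. It joins 2 protocadherins, Cdhr2 and Cdhr5, to a cytoplasmic module of the scaffold harmonin (Ush1c), the motor myosin-7b (Myo7b), Anks4b and the light chain Calml4. The protocadherins stood highest. Cdhr2 was at 300.3 and 1202 CPM (21490 and 65720 counts), a log2 ratio of 2.0 (1.98 to 2.02), or 4.00-fold. Cdhr5 was at 152 and 680.5 CPM (10844 and 37205 counts), a log2 ratio of 2.17 (2.14 to 2.20), or 4.49-fold. In the cytoplasmic module, Ush1c was at 148 and 261 CPM (10559 and 14273 counts), a log2 ratio of 0.82 (0.79 to 0.86). Myo7b was at 288 and 302 CPM (20597 and 16537 counts), a log2 ratio of 0.07 (0.04 to 0.10). This was the smallest ratio among the members, and its sign depended on the scaling, since it was -0.18 with total counts. Anks4b, an ankyrin repeat scaffold, was at 45.2 and 125 CPM, a log2 ratio of 1.47 (1.41 to 1.53), and Calml4 was at 240 and 288 CPM, a log2 ratio of 0.26 (0.23 to 0.29).

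Differences between genes of the complex do not depend on the scaling of the libraries. The log2 ratio of Cdhr2 was 1.93 (1.89 to 1.97) above that of Myo7b and 1.18 (1.14 to 1.22) above that of Ush1c. The ratios of both protocadherins differed by 0.17 (0.13 to 0.20), and that of Anks4b was 1.20 (1.14 to 1.27) above that of Calml4. Per kilobase of transcript, Cdhr2 was at 72.7 and 291 CPM, Cdhr5 at 57.7 and 259 CPM, Ush1c at 48.0 and 85.0 CPM and Myo7b at 43.5 and 45.7 CPM. The order of the 4 levels was the same in both libraries, with the protocadherins above Ush1c and Myo7b. Of the rest of the cytoplasmic module, Calml4 was above all 4, at 277 and 333 CPM per kb, and Anks4b below them, at 11.6 and 32.0 CPM per kb. Myo7a, the class VII myosin of hair cell stereocilia, was at 113 and 132 CPM, a log2 ratio of 0.23 (0.18 to 0.28).

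Both membrane linkers were higher in the DSS library, Myo1a by far more than Ezr. Ezr, for ezrin, the ERM protein that ties the membrane to F-actin, was at 494 and 939 CPM (35375 and 51349 counts), a log2 ratio of 0.93 (0.91 to 0.95). Myo1a, for the motor that bridges the core bundle to the membrane, was at 94.1 CPM (6737 counts) and 845 CPM (46224 counts). Its log2 ratio of 3.17 (3.13 to 3.20), or 8.98-fold (8.75 to 9.22), was the highest of the members and was above that of 97.4% of all genes tested. It was 2.24 (2.20 to 2.28) above the ratio of Ezr.

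The other class I myosins had smaller ratios than Myo1a. Myo1d was the more abundant class I myosin in the control library, at 80.7 CPM per kilobase of transcript compared with 27.4 CPM for Myo1a. In the DSS library the order was the other way, with 141 CPM for Myo1d and 246 CPM for Myo1a. The log2 ratio of Myo1d was 0.80 (0.78 to 0.82), and that of Myo1a was 2.37 (2.32 to 2.41) above it. Myo1e was at a log2 ratio of 1.18 and Myo1c at 0.53. Of 13 tested genes in the list of unconventional myosins, 3 were at 1 or more (Myo1a, Myo1e and the vesicle motor Myo5b), and Myo1h, with 35 and 4 counts, was at -1 or less. Among all genes tested the shares were 19.3% and 20.2%. The median of the list was 0.19, and -0.065 with total counts, when 2 genes reached 1 and 3 reached -1. Myo6, which moves toward the base of the microvillus, was at 348 and 388 CPM.

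Among ERM genes, Ezr held nearly all the counts. Rdx (radixin) had 95 and 16 counts, a log2 ratio of -2.18 (-3.05 to -1.41), and Msn (moesin) had 7 and 9 counts, under the minimum. PDZ scaffolds that connect ezrin to membrane proteins lay on both sides of 0. Slc9a3r1 (NHERF1) was at 120 and 367 CPM, a log2 ratio of 1.61 (1.58 to 1.65), which was 0.69 (0.65 to 0.73) above that of Ezr. Pdzk1 went from 3.24 CPM (232 counts) to 58.8 CPM (3214 counts), a log2 ratio of 4.18 (3.99 to 4.38), while Slc9a3r2 had 163 and 23 counts and a log2 ratio of -2.44. Of the ezrin kinases, Slk was at a log2 ratio of 0.31 and Stk10 at 1.66 (135 and 326 counts), and Stk26, with 158 and 19 counts, at -2.67. In the list headed ERM proteins, scaffolds and kinases, 12 genes were tested. Of these, 3 had ratios of at least 1 and 5 of -1 or lower, against 19.3% and 20.2% of all genes tested. The 5 included Cd44 and Ppp1r14b, which are not themselves ERM proteins, scaffolds or kinases. The median of the list was -0.02, and its sign depended on the setting.

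**Figure D3:**
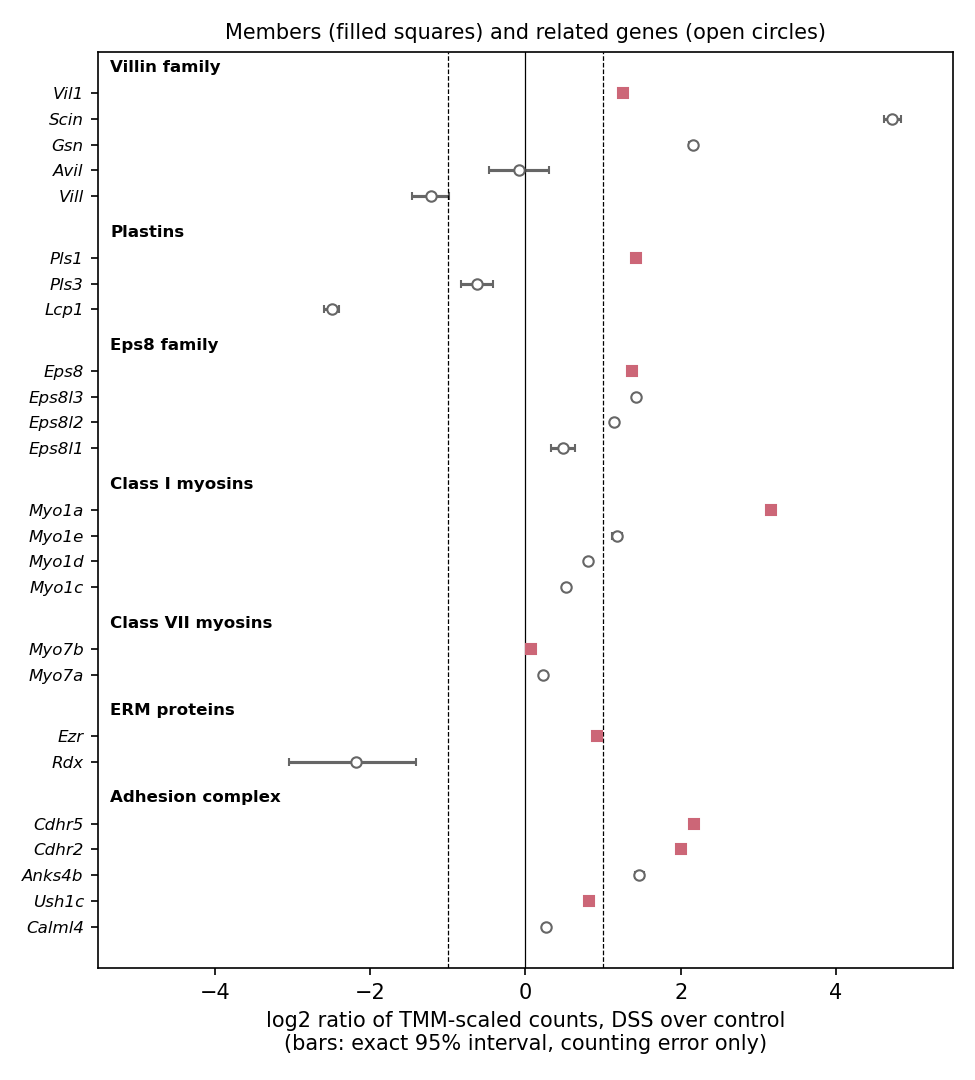
Log2 ratios (DSS over control) of members (filled squares) and related genes (open circles), grouped by protein family, with exact 95% intervals for counting error. Scin at 4.73 and Lcp1 at -2.50 lie on opposite sides of 0, and Myo1a at 3.17 lies above the other class I myosins shown.

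The make-up of the microvillus transcripts also differed between the libraries. As a share of the summed levels per kilobase of transcript of the 10 genes, Myo1a went from 4.22% in the control to 13.5% in the DSS library. Cdhr2 went from 11.2% to 15.9% and Cdhr5 from 8.88% to 14.2%. The shares of Ezr, at 24.1% and 16.3%, of Myo7b, at 6.69% and 2.50%, and of Ush1c, at 7.40% and 4.65%, were lower in the DSS library. Vil1 took 25.1% and 21.3%, Pls1 8.20% and 7.85%, Eps8 3.38% and 3.11%, and Espn 0.881% and 0.753%. These shares do not depend on the scaling of the libraries, but they do depend on the length used. Per kilobase of coding sequence, Ezr stood ahead of Vil1, with 31.1% and 22.1% compared with 22.7% and 20.2%, and Myo1a went from 3.33% to 11.2%.

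**Figure D4:**
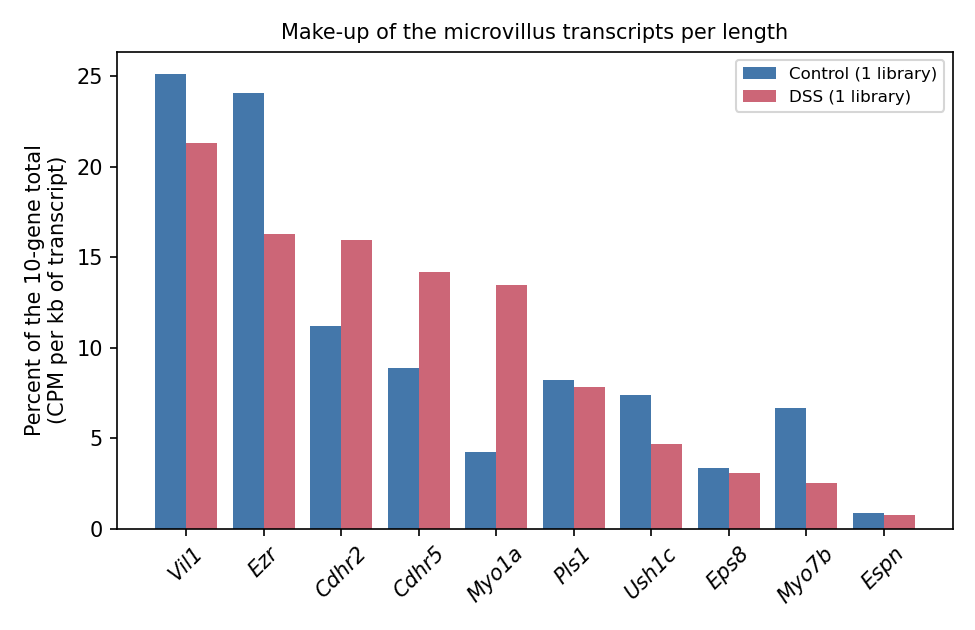
Share of each microvillus gene in the summed levels of all 10, in percent, from CPM per kilobase of the longest transcript, in the control library and the DSS library (1 library each). The bars of Myo1a are at 4.22% and 13.5% and those of Ezr at 24.1% and 16.3%.

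The actin that these proteins bundle is encoded in epithelium mainly by Actb and Actg1. Actb was at 1500 and 3175 CPM, a log2 ratio of 1.08 (1.07 to 1.09), and Actg1 was at 1688 and 1671 CPM, a log2 ratio of -0.01. Per kilobase of transcript, Actg1 was slightly above Actb in the control (865 and 781 CPM) and below it in the DSS library (856 and 1654 CPM). The log2 ratio of their sum was 0.60, and the ratio of Vil1 was 0.17 (0.15 to 0.19) above that of Actb. Actin genes have near-identical coding sequences and the counting of shared reads is not given, so the ratios of single actin genes are uncertain. Of the 4 tested actin genes, 3 were at 1 or more, namely Actb, Acta1, at 85.7 and 177 CPM with a log2 ratio of 1.05, and Acta2, with 4 and 20 counts. Under total-count scaling only 1 of them, Acta2, was past 1. With TMM factors, 19.3% of all genes tested were at 1 or more.

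The terminal web, the actin and myosin meshwork in which the core bundles are rooted, had a median of 0.31 over 16 tested genes. Under total-count scaling the median was 0.050. Of the 16 genes, 2 were at or above 1 and 2 at or below -1, against 19.3% and 20.2% of all genes tested. Those at 1 or more were Myh14, the non-muscle myosin heavy chain 2C, at 283 and 772 CPM with a log2 ratio of 1.45 (1.42 to 1.47), and Synpo (synaptopodin), at 10.8 and 82.4 CPM with a log2 ratio of 2.94. Myh9, the heavy chain 2A, was at 459 and 434 CPM, and the ratio of Myh14 was 1.52 (1.49 to 1.56) above it. The light chain Myl9 went from 85.2 to 8.25 CPM, a log2 ratio of -3.37 (-3.51 to -3.23). Myl6, the most counted light chain of the list, was at 304 and 498 CPM.

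Promoter windows of RefSeq (GRCm38.p6), from 250 bases before to 50 bases after an annotated start, were matched by symbol for 8 of the 10 genes, in 10 windows. The stretch from 210 to 11 bases before the start is shown for both protocadherins, which had log2 ratios of 2.0 and 2.17, and for Ezr, which had one of 0.93. Capitals mark letters of a searched motif on either strand.
Cdhr2, chr13:54701253-54701452, plus strand: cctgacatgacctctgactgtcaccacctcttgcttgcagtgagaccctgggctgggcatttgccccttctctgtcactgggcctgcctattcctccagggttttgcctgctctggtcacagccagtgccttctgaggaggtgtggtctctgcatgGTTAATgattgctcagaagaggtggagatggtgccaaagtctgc
Cdhr5, chr7:141276797-141276996, minus strand: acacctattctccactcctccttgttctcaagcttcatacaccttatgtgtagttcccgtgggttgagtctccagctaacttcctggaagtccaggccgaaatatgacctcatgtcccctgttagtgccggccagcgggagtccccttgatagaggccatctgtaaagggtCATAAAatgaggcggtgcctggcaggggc
Ezr, chr17:6782791-6782990, minus strand: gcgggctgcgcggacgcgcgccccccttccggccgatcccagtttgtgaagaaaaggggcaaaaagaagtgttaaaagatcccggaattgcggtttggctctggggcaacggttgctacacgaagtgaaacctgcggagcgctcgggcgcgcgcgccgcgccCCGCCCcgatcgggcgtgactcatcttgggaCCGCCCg

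The windows differed in CpG content. The 200 bases shown held 0 CpG dinucleotides for Cdhr2, 5 for Cdhr5 and 27 for Ezr. Over the 250 bases before the start, Ezr had 32, Pls1 10, Cdhr5 and Ush1c 7 each, Vil1 5, and Cdhr2 and Myo1a 1 each. The windows of Espn had 11, 1 and 3, and the median of all 32851 windows was 6. The HNF1 motif GTTAAT was found in the window of Cdhr2 and in 7.10% of all windows. The CDX motif TTTATG, read on the opposite strand as CATAAA, was found in the windows of Cdhr5 and Espn and in 11.9% of all windows. The GC box GGGCGG was found in windows of Espn, Ezr, Ush1c and Vil1 and in 35.7% of all windows. The HNF4 motifs CAAAGTCCA and CAAAGTTCA (0.475% and 0.390% of all windows), the second CDX motif TTTATT (19.6%), which shares its first bases with TTTATG, and the GATA motif TGATAA (9.05%) had no match in the windows of these genes. A match is a description of letters, and binding was not measured. The window of Myo1a held 86 bases of an annotated exon and is not shown.

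In the GENCODE vM21 annotation, exons of Vil1 shared 49 bases with Usp37 and exons of Ezr 4 bases with Sytl3, each on the opposite strand. Exons of Ush1c shared 120 bases with the unlisted gene Gm9860, also on the opposite strand. No other member had exon bases in common with another annotated gene.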

How the data were processed

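Stranded poly(A) mRNA libraries were sequenced from 1 culture per condition. The table the authors deposited holds raw counts for each gene. The files of the single samples, although named for FPKM, held the same counts for all 19294 genes, so no FPKM was used. The submitters' processing notes name HISAT2 and StringTie. Their versions, the counting settings, including strand, and the genome build are not given in the sources used here. Listed genes have at least 1 count in both libraries.

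Counts were scaled with TMM factors (edgeR 4.0.16, R 4.3.3), and log2 ratios of DSS over control were given with exact Clopper-Pearson 95% intervals (scipy 1.17.1, Python 3.11.15) that cover counting error only. A gene was counted as higher or lower past a log2 ratio of 1 or -1, among genes with at least 10 counts in a library. Each condition has 1 library, so differences were not tested and have no SD or SE. Intervals for the difference between 2 genes' ratios were normal approximations on the log scale, for counting error only. The computation was tested on simulated counts.

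Lengths were those of the longest GENCODE vM21 protein-coding transcript, or of the gene's longest coding sequence, taken from the annotation instead of a protein table as first planned. Promoter sequences were those of RefSeq (GRCm38.p6).

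The member genes, gene lists and rule for named genes were chosen with earlier results of these data known. Named were all members, their paralogs with at least 50 counts in a library, the adhesion complex, and from each other list the 3 genes with the largest absolute ratio and the 3 with the most counts, among genes with at least 50 counts. Cell type markers were given as sums and counts of each list, and some genes that the rule names are not reported here. The remaining genes named in the text were chosen after their values were seen: Cd44, Ppp1r14b, Stk10, Myo1h, Msn, Stx3, Acta2 and Ptprc. Results were recomputed with total-count, upper quartile or DESeq2 1.42.0 scaling, with other count minimums, a prior count of 2, the line at 2 or -2, and after the control library was thinned to the depth of the DSS library.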

Additional observations from a re-analysis of the deposited data

How the results depend on the processing

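The 10 member ratios kept their sign in 59 of 60 recomputations with other factors, a prior count of 2, thinning or centring. The exception was Myo7b, at -0.18 with total counts. The other members were at 0.82 or more, and other factors shifted each ratio by at most 0.26, so only the sign of Myo7b could change. With total counts, the median of the members was 1.06 and the ratio of their sum 1.19. With upper quartile factors these values were 1.41 and 1.54, and with Myo1a left out, an alternative chosen after the data were seen, they were 1.26 and 1.30. Centring on the median of all genes, also chosen later, gave a median of 1.38. These shifts follow from the construction of the alternatives. At the line of 2 or -2, with TMM factors, 3 members were higher and 0 lower, against 1356 genes higher and 1127 lower of all tested, or 7.87% and 6.54%. With total counts, Cdhr2 (1.75) and Cdhr5 (1.91) fell short of 2. With at least 1000 counts in a library, a later choice, 1149 genes reached 1 and 1586 reached -1. List medians near 0 changed sign. The list of ERM proteins was at 0.068 with upper quartile factors and 0.11 with no filter, the unconventional myosins were at -0.065 with total counts, and the transcription factors of the enterocyte were at 0.046 with upper quartile factors. Depth limits Rdx, Msn, Stk26, Slc9a3r2 and Myo1h, which had few counts. No paired analysis was possible because each condition has 1 library and no replicate numbers are given.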

Other observations

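The genes of apical vesicle delivery, in which loss of Myo5b, Stx3 or Stxbp2 causes microvillus inclusion disease, had a median log2 ratio of 0.63, or 0.374 under total-count scaling. Of 10 listed genes, 1 was at 1 or more and 0 were at -1 or less, against 19.3% and 20.2% of all genes tested. Myo5b, the motor that carries recycling vesicles to the apical membrane, was at 155 and 413 CPM in control and DSS, a log2 ratio of 1.42 (1.39 to 1.45). Rab11fip1 was at 111 and 221 CPM (0.99), Rab8a at 97.1 and 178 CPM (0.88) and Stxbp2 at 135 and 157 CPM (0.21).

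The listed transcription factors of the enterocyte had a median of -0.04, beside -0.06 for all genes tested. Of 11 genes, 2 were at or above 1 and 1 at or below -1, shares no larger than those of all genes. Hnf4g was at 69.9 and 330 CPM, a log2 ratio of 2.24 (2.19 to 2.28), whereas its paralog Hnf4a was at 731 and 756 CPM, a log2 ratio of 0.05. Klf4, a factor of differentiated epithelium, was at 65 and 180 CPM (1.47), and the intestinal identity factor Cdx2 was at 179 and 70.2 CPM (-1.35). Elf3 was at a log2 ratio of -0.17 and Gata4 at -0.18. The hair cell counterparts of the adhesion complex included 6 listed genes of 10, with a median of -0.50. Of the 6, 1 was at 1 or more and 2 at -1 or less, against 19.3% and 20.2% of all genes tested. Among the 6, Cib2 was at 10.7 and 1.87 CPM (-2.52), Whrn at 27.5 and 15.4 CPM (-0.83), and Myo15 had 23 and 81 counts (2.20).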
